A study of Mus musculus with 79 samples.

Results

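Expression and histone marks of 10 core circadian clock genes were examined in adult mouse hypothalamus carrying a mutation in the DNA methyltransferase DNMT3A. The genes were taken by name from the 25965 genes of the expression table: Clock and Arntl (which encodes BMAL1), Per1, Per2 and Per3, Cry1 and Cry2, Dbp and Tef, and Nfil3. All 10 names were found once. Wild-type animals (+/+) were compared with animals carrying Δ on the maternal and D329A on the paternal Dnmt3a allele (Δ/D329A). Δ is a Dnmt3a allele that lost a floxed exon in the oocyte by Zp3-driven Cre and is therefore carried by every cell of the offspring. D329A exchanges an aspartate for an alanine in the PWWP domain, through which DNMT3A reads methylated H3K36. All animals were C57BL/6 and about 14 weeks old. Expression came from 5 +/+ and 4 Δ/D329A hypothalami, 1 library per female animal. Native ChIP came from 3 +/+ and 3 Δ/D329A males, each of which gave an H3K4me3, an H3K27me3, an H3K36me3 and an input library, so expression and chromatin were measured in different animals of different sex. A further Δ/D329A RNA library, which the authors set aside for its low quality, was not analysed here. The time of day of tissue collection and the light cycle are not given in the sources used here.

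In the mammalian clock, CLOCK and BMAL1 form a heterodimer that binds E-box sequences and activates the Per and Cry genes and the PAR-bZIP factors Dbp and Tef. PER and CRY proteins accumulate and repress this activator, so that most of these transcripts rise and fall once a day, with Arntl in opposite phase to its targets. DBP and TEF activate genes through D-boxes, which NFIL3 occupies as a repressor, and nuclear receptors of the ROR and REV-ERB families act on Arntl through a shared element. The central pacemaker lies in the suprachiasmatic nucleus of the hypothalamus, and the same loop runs in most other cells of the body.

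The sequences through which these factors are known to act were read from the RefSeq promoter windows (build GRCm38.p6), each of 250 bases before to 50 bases after an annotated start, of which 14 belonged to 9 of the 10 genes. Per2 had no window. The 4 stretches printed here are the 250 bases before a start. They hold no annotated exon base on the strand of the gene, apart from 10 bases of Cry1 and 1 base of Per1. Those of Per1 and Tef end at inner starts, downstream of the start in the expression table. They hold an E-box (CACGTG), the related E-prime box (CACGTT) or a D-box (TTATGTAA or TTACGTAA) in capitals, 5′ to 3′ on the strand of the gene.
Per1 (chr11:69098699-69098948, plus strand): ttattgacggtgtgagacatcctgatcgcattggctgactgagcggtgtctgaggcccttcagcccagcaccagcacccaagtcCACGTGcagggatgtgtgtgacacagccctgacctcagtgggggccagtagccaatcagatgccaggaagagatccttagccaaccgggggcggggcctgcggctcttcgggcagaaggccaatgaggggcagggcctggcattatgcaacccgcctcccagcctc
Cry1 (chr10:85185055-85185304, minus strand): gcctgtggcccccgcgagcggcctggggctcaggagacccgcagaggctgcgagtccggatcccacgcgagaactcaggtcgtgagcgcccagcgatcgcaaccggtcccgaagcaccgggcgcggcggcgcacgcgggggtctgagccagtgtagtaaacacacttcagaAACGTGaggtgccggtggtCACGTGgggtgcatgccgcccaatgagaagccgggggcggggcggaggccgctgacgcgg
Tef (chr15:81811164-81811413, plus strand): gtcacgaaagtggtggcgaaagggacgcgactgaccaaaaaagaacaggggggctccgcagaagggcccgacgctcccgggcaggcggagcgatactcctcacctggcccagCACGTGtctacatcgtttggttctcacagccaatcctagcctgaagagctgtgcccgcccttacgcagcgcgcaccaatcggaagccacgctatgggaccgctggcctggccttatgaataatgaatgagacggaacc
Per3 (chr4:151044666-151044915, minus strand): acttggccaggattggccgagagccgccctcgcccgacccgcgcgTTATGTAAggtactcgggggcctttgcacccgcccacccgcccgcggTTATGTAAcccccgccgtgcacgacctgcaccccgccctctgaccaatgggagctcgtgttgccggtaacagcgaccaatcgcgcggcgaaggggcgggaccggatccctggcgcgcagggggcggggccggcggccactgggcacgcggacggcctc
The E-box of Per1 lies 166 to 161 bases before the start, that of Cry1 60 to 55 bases and that of Tef 138 to 133 bases. The E-prime box of Cry1, read on the opposite strand, lies 79 to 74 bases before the start. Per3 holds 2 D-boxes of the same letters, 205 to 198 and 158 to 151 bases before its start.

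The core of the ROR and REV-ERB element (TAGGTCA or TGGGTCA) was found in the window of Nfil3, 12 to 6 bases before the RefSeq start and on the opposite strand. That RefSeq start lies 34 bp downstream of the start in the expression table. The core is in capitals in the following 30 bases, which are annotated as exon on the strand of the gene.
Nfil3 (chr13:52981040-52981069, minus strand): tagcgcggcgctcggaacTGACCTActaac
The same core lies 30 to 36 bases after a start of Arntl, and an E-prime box lies 166 to 161 bases before the start of Cry2. The stretch of Cry2, which also holds no annotated exon base on the strand of the gene, is not printed. Among all 32851 windows, searched on both strands, 7.15% held an E-box, 4.68% an E-prime box, 1.06% a D-box, 6.45% the ROR and REV-ERB core and 1.79% a cAMP response element (TGACGTCA). E-boxes were found in 4 of the 14 windows of the clock genes, in 3 genes, and no window held the cAMP response element. The windows of Clock and Dbp held none of the 5 motifs. No motif found overlapped another. A match of letters is a description of the window and says nothing about binding in these animals.

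All 10 clock genes were expressed above the median level of the genes tested, 1.10 log2 RPKM (read numbers scaled by transcript length and by library size, a measure per length on which genes can be set side by side). Tef was highest with a mean over the 9 libraries of 3.93 log2 RPKM, at the percentile 92.5 of the genes tested, followed by Clock with 3.24, Dbp with 2.83, Cry2 with 2.57 and Arntl with 2.41. Per1 had a mean of 2.19, Cry1 of 1.89, Per3 of 1.63, Per2 of 1.43 and Nfil3 of 1.32 log2 RPKM, the last at the percentile 53.7. The lead of Tef over Clock (0.69 ± 0.21, SD of the difference in log2 RPKM within libraries, n = 9) and of Clock over Dbp (0.41 ± 0.27) held in 9 of 9 libraries, and that of Dbp over Cry2 (0.27 ± 0.21) in 8. From Cry2 downward each gene was above the next in only 5 to 7 of 9 libraries, and the differences of neighbours were 0.11 to 0.30 with SDs of 0.29 to 0.41, so the order of neighbours in this lower range was not separated from the spread between libraries. Read numbers per library ranged from 41 to 132 for Nfil3 and from 1115 to 3272 for Tef.

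**Figure D1:**
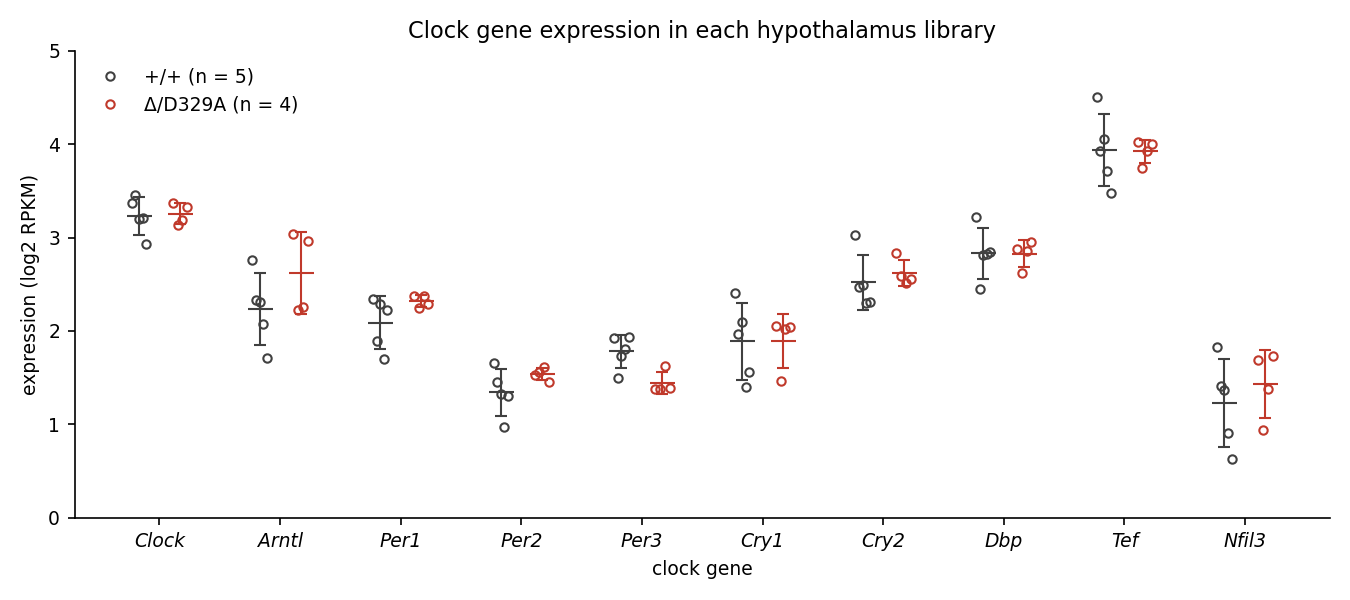
Expression of the 10 clock genes (log2 RPKM, y axis) in each of the 5 +/+ and 4 Δ/D329A libraries (points), with the mean and SD of each genotype (bars). The points of the genotypes overlap for every gene, and Tef lies at the top and Nfil3 and Per2 at the bottom of the range.

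None of the 10 clock genes passed the test between the genotypes (limma on log2 RPKM, Benjamini-Hochberg adjusted p under 0.01 over 17839 genes, two-sided), beside 0.107% of all genes tested. No clock gene separated the 5 +/+ from the 4 Δ/D329A libraries without overlap, beside 3% of all genes tested. In Δ/D329A the mean was higher for 7 of the 10 genes and lower for 3, with a median difference of 0.06 log2, and over all genes tested 59.6% were higher, with the same median of 0.06 log2 after rounding. The 95% intervals of the 10 differences together span −0.65 to 0.92 log2, or 0.638-fold to 1.90-fold, and 9 of the 10 contain 0. Every difference is given as Δ/D329A minus +/+.

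Of the activators, Clock, the DNA-binding partner of BMAL1, had values of 3.37, 3.46, 3.20, 3.21 and 2.93 log2 RPKM in +/+ and of 3.37, 3.14, 3.19 and 3.33 in Δ/D329A. The groups overlapped over the whole Δ/D329A range, and the difference was 0.02 log2 (SE 0.14, 95% interval −0.28 to 0.32, limma adjusted p = 0.983). Arntl was more variable, with 2.76, 2.33, 2.31, 2.08 and 1.71 log2 RPKM in +/+ and 3.04, 2.22, 2.26 and 2.96 in Δ/D329A. Δ/D329A replicates 1 and 4 were above every +/+ library, while replicates 2 and 3 lay in the middle of the +/+ range. The difference of 0.38 log2 (SE 0.25, interval −0.16 to 0.92) had a limma adjusted p of 0.531 and an exact permutation p of 0.175, and no setting tried gave an adjusted p under 0.184. When each library was centred on its own median, Δ/D329A replicates 1 and 4 stood at 2.93 and 2.92 against 2.01 to 2.42 for the other 7 libraries.

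The Per genes encode part of the negative limb, and Per1 and Per2 had a higher and Per3 a lower mean in Δ/D329A. Per1, the member that light and hormones induce most rapidly, had 2.34, 1.89, 2.29, 1.70 and 2.23 log2 RPKM in +/+ and 2.38, 2.25, 2.37 and 2.29 in Δ/D329A. The Δ/D329A libraries lay close together, with replicates 1 and 3 above every +/+ library and replicates 2 and 4 in the upper part of the +/+ range. The difference was 0.23 log2 (SE 0.16, interval −0.12 to 0.58, limma adjusted p = 0.583). Per2 had 1.66, 1.45, 1.33, 0.97 and 1.30 in +/+ and 1.53, 1.56, 1.61 and 1.45 in Δ/D329A. The Δ/D329A values of Per2 were a tight group inside the upper +/+ range, with a difference of 0.20 log2 (SE 0.16, interval −0.15 to 0.54, limma adjusted p = 0.668).

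Per3, the only clock gene of the 10 with an unadjusted limma p under 0.05, had 1.93, 1.50, 1.73, 1.81 and 1.94 log2 RPKM in +/+ and 1.38, 1.38, 1.62 and 1.39 in Δ/D329A. All 4 Δ/D329A libraries lay below the +/+ mean, and 3 of them below every +/+ library, but Δ/D329A replicate 3 was above +/+ replicate 2. The difference of −0.34 log2 (SE 0.14, interval −0.65 to −0.03, fold 0.791) had a limma p of 0.035 and an adjusted p of 0.355, against 7.62% of all genes tested with an unadjusted p under 0.05. An exact permutation of the 9 library labels gave p = 0.0317, where the smallest p possible is 0.00794. The sign was negative in all 17 alternative settings (−0.41 to −0.26 log2), with adjusted p from 0.130 to 0.794. Centring on library medians set +/+ replicates 4 and 5 at 2.04 and 2.24 against 1.28 to 1.64 for the other 7 libraries, so the remaining +/+ libraries then overlapped with Δ/D329A (exact permutation p = 0.103). 

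Cry1 and Cry2 encode the cryptochromes, the main repressors of CLOCK and BMAL1 in the loop. Cry1 had 2.41, 1.97, 2.10, 1.40 and 1.56 log2 RPKM in +/+ and 2.05, 1.46, 2.02 and 2.04 in Δ/D329A, with a difference of 0.01 log2 (SE 0.23, interval −0.49 to 0.50, limma adjusted p = 0.997). Each genotype held libraries near the bottom of the range. Cry2 had 3.03, 2.47, 2.49, 2.30 and 2.31 in +/+ and 2.83, 2.59, 2.51 and 2.56 in Δ/D329A, with a difference of 0.11 log2 (SE 0.17, interval −0.27 to 0.48, limma adjusted p = 0.896). The highest Cry2 value was that of +/+ replicate 1.

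Dbp, an output gene of large daily amplitude, had 3.22, 2.45, 2.81, 2.82 and 2.85 log2 RPKM in +/+ and 2.88, 2.62, 2.86 and 2.95 in Δ/D329A. Its difference was 0.00 log2 (SE 0.16, interval −0.36 to 0.35, or 0.780-fold to 1.28-fold, limma adjusted p = 0.997), and the highest and the lowest library, both +/+, differed 1.71-fold. Exons of Dbp share 539 bases with Sphk2 on the opposite strand, and exons of Cry2, Tef and Arntl share 295, 193 and 33 bases with other annotated genes. The study describes its RNA libraries as strand-specific, but whether the counting used strand is not given in the sources used here. Tef, the related activator, had 4.50, 3.93, 4.05, 3.71 and 3.48 in +/+ and 4.02, 3.75, 3.93 and 4.0 in Δ/D329A, with a difference of −0.01 log2 (SE 0.19, interval −0.44 to 0.42, limma adjusted p = 0.997). Nfil3, the repressor at the D-box, had 1.83, 1.41, 1.37, 0.91 and 0.63 in +/+ and 1.69, 0.94, 1.38 and 1.73 in Δ/D329A. The Δ/D329A values were inside the +/+ range, and the difference was 0.21 log2 (SE 0.26, interval −0.36 to 0.78, limma adjusted p = 0.847). After centring on library medians Nfil3 was highest in the same Δ/D329A replicates 1 and 4 as Arntl, at 1.59 and 1.69 against 0.94 to 1.44.

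**Figure D2:**
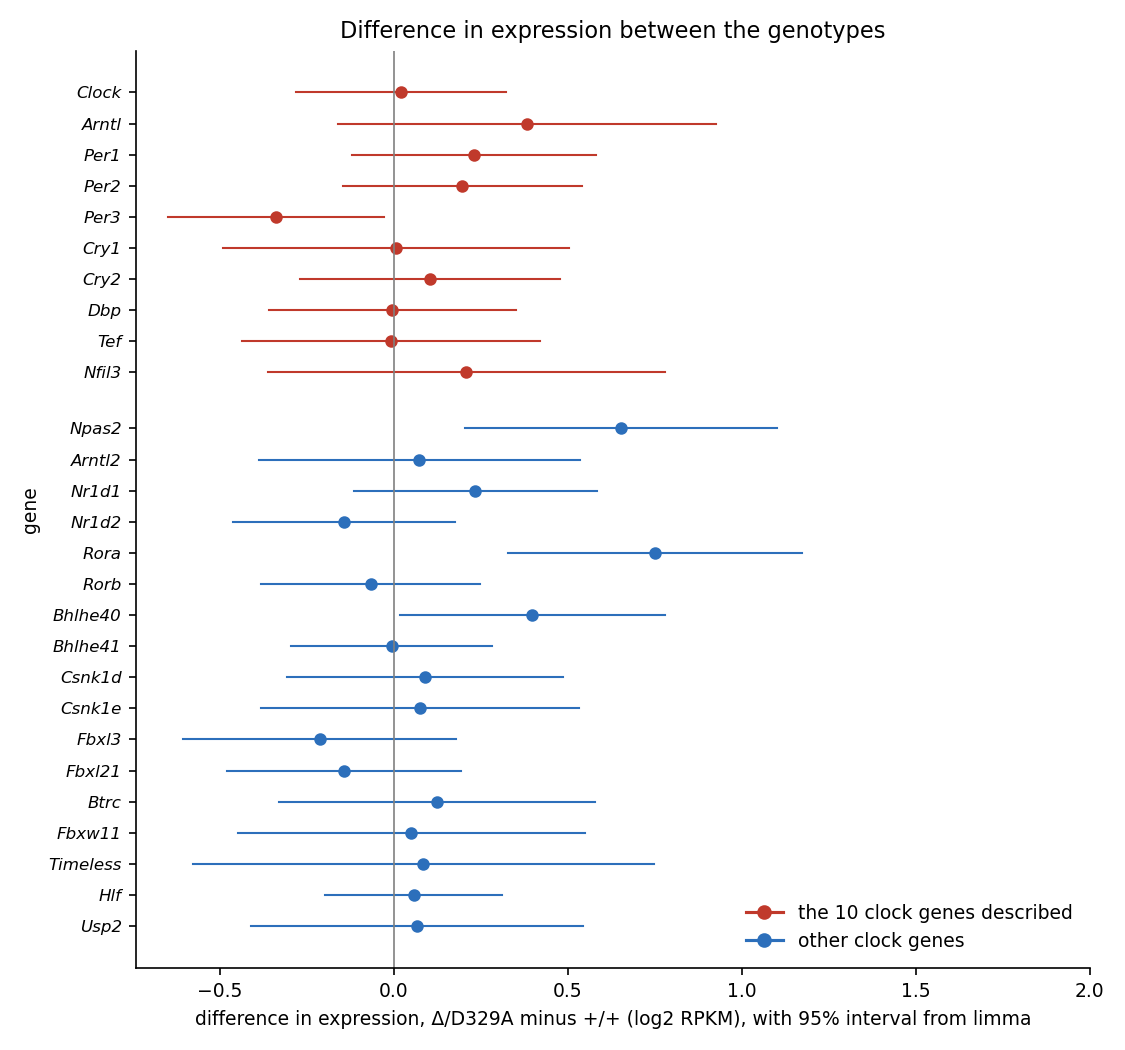
Difference in expression between Δ/D329A (n = 4) and +/+ (n = 5) in log2 RPKM (x axis) for the 10 clock genes and for 17 other clock genes (y axis), as points with the 95% interval from limma. Of the 10 clock genes, Per3 alone has an interval without 0, and of the other clock genes Npas2, Rora and Bhlhe40 have one.

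Before centring, the spread between animals of a genotype was above the median of all genes tested for Nfil3, Arntl and Cry1 (percentiles 71.1, 68.7 and 59.3). It was under that median for the other clock genes. The SD within genotypes ranged from 0.16 log2 for Per3 to 0.43 for Nfil3, against a median of 0.32 over all genes tested. After centring on library medians it ranged from 0.10 for Tef, at the percentile 3.31 of all genes, to 0.27 for Arntl, at the percentile 52.9, with a median of 0.26 over all genes. Between the lowest and the highest of the 9 libraries the clock genes differed from 1.44-fold (Clock) to 2.51-fold (Arntl).

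**Figure D3:**
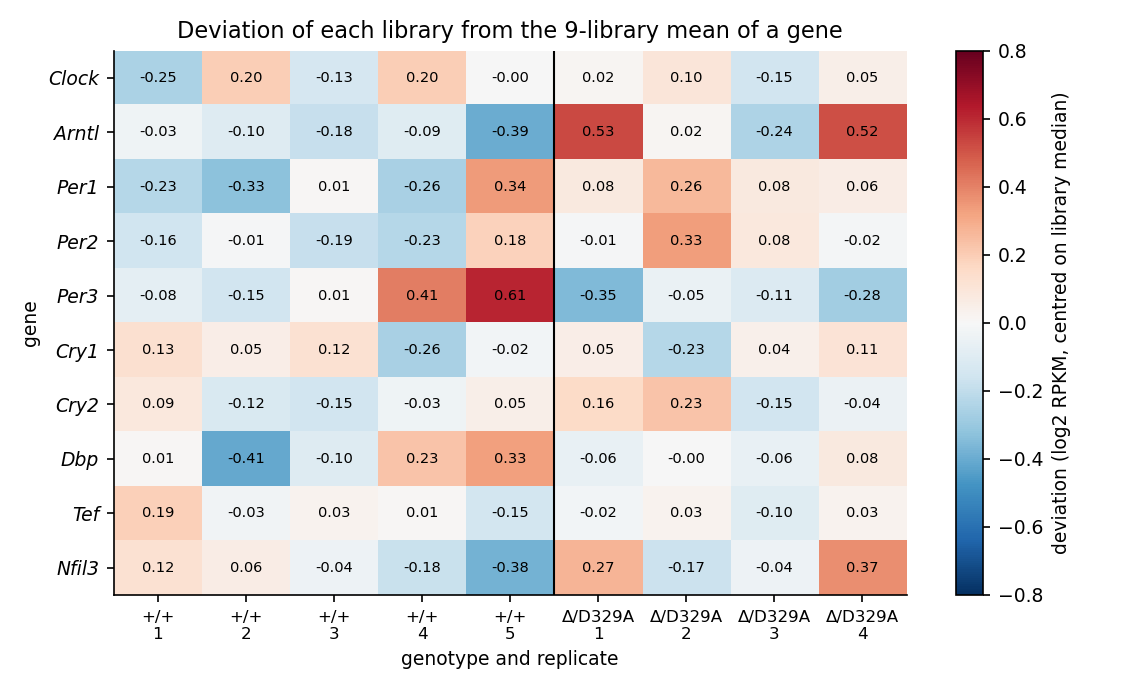
Deviation of each library (x axis, genotype and replicate) from the 9-library mean of each clock gene (y axis), in log2 RPKM after centring on the library median (colour and printed value). The largest positive values are those of Per3 in +/+ replicate 5 (0.61) and of Arntl in Δ/D329A replicates 1 and 4 (0.53 and 0.52), and the largest negative value is that of Dbp in +/+ replicate 2 (−0.41).

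Whether clock genes deviated together from animal to animal was examined for 8 pairs, with the genotype mean removed from each of the 9 libraries. No pair passed adjustment over the 8 pairs (exact permutation within genotypes, two-sided, lowest adjusted p = 0.282). Dbp and Per3, both outputs of the E-box limb, gave Pearson r = 0.72 (exact permutation p = 0.0625) and Spearman rho = 0.48 (p = 0.171), and r = 0.22 without the 2 libraries farthest from the median of Dbp, so that on this scale it rested on those libraries. With libraries centred on their medians the same pair gave r = 0.81 (exact permutation p = 0.0465) and rho = 0.77 (p = 0.0764), and r = 0.58 without the farthest libraries. Dbp and Nr1d1 gave r = 0.61 (exact permutation p = 0.107) and rho = 0.55 (p = 0.155), and r = 0.17 without the farthest libraries, and after centring r = 0.75 (exact permutation p = 0.0226) and rho = 0.82 (p = 0.00764), and r = 0.41 without them. Per1 and Per2 gave r = 0.68 (exact permutation p = 0.179) and rho = 0.28 (p = 0.517), and r = 0.57 without them. Arntl and its phase partner Npas2 gave r = 0.60 (exact permutation p = 0.0920) and rho = 0.73 (p = 0.0403), r = 0.76 without the farthest libraries, and r = 0.11 once libraries were centred on their medians. Dbp gave r = 0.55 (exact permutation p = 0.212) and rho = 0.50 (p = 0.211) with Tef, with r = 0.30 without the farthest libraries, and r = 0.44 (exact permutation p = 0.266) and rho = 0.53 (p = 0.169) with Arntl, with r = 0.53 without them. Per1 gave r = 0.66 (exact permutation p = 0.200) and rho = 0.65 (p = 0.182) with the immediate early gene Fos, with r = 0.56 without the farthest libraries, and r = −0.13 (exact permutation p = 0.913) and rho = −0.02 (p = 0.983) with the glucocorticoid target Fkbp5, with r = 0.10 without them. The Per1 and Fos relation turned on 1 library, since without +/+ replicate 5 it gave r = 0.95 (exact permutation within genotypes, adjusted p = 0.0139), and after centring r = −0.04 with all 9 libraries. Centring also gave r = −0.11 for Dbp and Arntl, −0.17 for Dbp and Tef, 0.65 for Per1 and Per2 and 0.24 for Per1 and Fkbp5, and no pair passed on that scale (exact permutation within genotypes, lowest adjusted p = 0.166 for r and 0.0611 for rho).

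Of 18 further genes of the clock, 17 were in the table and tested, and Ciart was not analysed here. By limma 0 of the 17 passed, 12 had a higher and 5 a lower mean in Δ/D329A, with a median difference of 0.07 log2. Of the 17, 3 had an unadjusted limma p under 0.05, beside 7.62% of all genes tested. DESeq2 on the recovered reads called 1, Rora, and edgeR 0. The 3 genes are Npas2, named by rule, and Rora and Bhlhe40, added after their values were seen. Rora, a nuclear receptor that activates Arntl, had 2.59, 2.73, 2.61, 2.36 and 2.75 log2 RPKM in +/+ and 3.90, 3.20, 2.91 and 3.42 in Δ/D329A. All 4 Δ/D329A libraries were above all 5 +/+ libraries, and the difference was 0.75 log2 (SE 0.19, interval 0.33 to 1.17, limma adjusted p = 0.268). After centring on library medians the Rora groups overlapped, with +/+ replicate 5 at 3.05 and Δ/D329A replicate 3 at 2.81. The exact permutation p was then 0.0317, against 0.00794 before centring. Npas2, a paralogue of Clock, had 0.56, 0.27, 0.47, −0.33 and 0.22 in +/+ and 1.12, 0.82, 0.69 and 0.94 in Δ/D329A. Its groups did not overlap before or after centring, and the difference was 0.65 log2 (SE 0.20, interval 0.21 to 1.10, limma adjusted p = 0.355). Before centring, these were the 2 of 17 genes whose groups did not overlap, beside 3% of all genes tested. Bhlhe40, a repressor at E-boxes, differed by 0.40 log2 (SE 0.17, limma adjusted p = 0.355).

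The REV-ERB genes, which repress Arntl through the same element that ROR factors activate, had differences of opposite sign. Nr1d1 had 2.90, 2.39, 2.71, 2.48 and 2.90 log2 RPKM in +/+ and 2.99, 2.93, 2.63 and 3.11 in Δ/D329A, a difference of 0.24 log2 (limma adjusted p = 0.567). Nr1d2 differed by −0.14 log2 (limma adjusted p = 0.784), Rorb by −0.07 (0.931), the E-box repressor Bhlhe41 by −0.01 (0.997) and the PAR-bZIP factor Hlf by 0.06 (0.922). Both Arntl and Rora had their highest values in Δ/D329A replicates 1 and 4, but so did Nr1d1, Npas2 and Bhlhe40. The pattern was therefore not particular to Arntl and Rora, and a link between these genes was not tested.

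Markers that could move with these values were read from the same libraries. Of 10 genes enriched in the suprachiasmatic nucleus, 0 passed, 4 had a higher and 6 a lower mean in Δ/D329A, with a median difference of −0.47 log2. Of the 10, 3 had an unadjusted limma p under 0.05, beside 7.62% of all genes tested. Their summed level was 71.8 to 145 RPKM in +/+ and 86.0 to 163 in Δ/D329A. Most of that sum was Avp, with a mean of 92.6 RPKM over the 9 libraries against 0.121 to 8.47 for the other genes. Avp was 1 of the 4 higher genes (0.33 log2), so the sum says little about the 6 lower ones. The largest difference in that list was −1.14 log2 for Prok2, an output peptide with 0 to 6 reads per library (limma adjusted p = 0.355). In bulk tissue, fewer cells of a type and less RNA per cell cannot be told apart, and the share of the suprachiasmatic nucleus in each dissection is not known from the sources used here.

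Among 11 immediate early genes, which respond to neuronal activity and include activators of Per1, all 11 had a higher mean in Δ/D329A, with a median of 0.26 log2. Of these 0 passed and 3 had an unadjusted limma p under 0.05, beside 7.62% of all genes tested. Their sums of 23.5 to 51.8 RPKM in +/+ and 35.9 to 51.2 in Δ/D329A overlapped, and the largest difference was 1.15 log2 for Egr4 (limma adjusted p = 0.355). All 9 glucocorticoid-induced genes also had a higher mean in Δ/D329A, with a median of 0.38 log2 and sums of 57.5 to 104 against 83.3 to 113 RPKM. For either list, the share with a higher mean over all genes tested was 59.6%. Of the 9, 1 passed, beside 0.107% of all genes tested, and 4 had an unadjusted limma p under 0.05, beside 7.62%. The gene that passed, Plin4, a lipid droplet protein, had −0.87, −1.10, −1.10, −1.23 and −1.56 log2 RPKM in +/+. In Δ/D329A it had 0.64, 0.47, 0.54 and 0.67 (difference 1.75 log2, SE 0.18, limma adjusted p = 0.00173). The part of either group of genes in the values of Per1 and the other clock genes was not tested.

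The 10 neuropeptide genes of hypothalamic neurons were all detected, with sums of 340 to 722 RPKM in +/+ and 391.9 to 538 in Δ/D329A, so the defining genes of the labelled tissue were present. None passed the test, and 4 had a higher and 6 a lower mean in Δ/D329A. Of the 10, 1 had an unadjusted limma p under 0.05, beside 7.62% of all genes tested. Of 5 cortical markers 3 were tested and 2 had a higher mean (sums 0.582 to 1.14 against 1.01 to 1.38 RPKM), and of 5 striatal ones 2 had a higher mean (7.26 to 12.6 against 9.27 to 10.4). Of 5 thalamic ones, which share Rgs16 with the suprachiasmatic list, 4 had a higher mean (37.3 to 63.9 against 46.1 to 69.7). Most of the thalamic sum was Slc17a6, the 1 lower gene (mean 36.6 RPKM over the 9 libraries, difference −0.01 log2). That sum therefore says little about the 4 higher genes. The 5 markers of the anterior pituitary gave 0.319 to 16.9 against 2.92 to 11.6 RPKM with 2 of the 4 tested higher, and the 5 of choroid plexus 3.90 to 5.27 against 4.28 to 8.48 with 3 higher. Astrocyte genes were higher in 4 of 5 (103 to 153 against 112 to 176 RPKM), microglial genes in 4 of 5 (12.5 to 24.5 against 15.6 to 22.0), endothelial genes in 4 of 5 (10.6 to 25.7 against 15.4 to 20.3) and oligodendrocyte genes in 0 of 5 (261 to 404 against 173 to 328). None of these genes passed limma's test in these 9 lists. An unadjusted limma p under 0.05 was found for 2 cortical, 1 striatal, 2 thalamic, 2 choroid plexus, 1 astrocyte and 1 oligodendrocyte gene, beside 7.62% of all genes tested. No gene of any list was at 0 in every library. Their part in the clock gene values was not tested.

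The RNA libraries held 5404919 to 9625802 reads on genes in +/+ and 3776938 to 6408171 in Δ/D329A. Mitochondrial reads made up 1.78 to 3.83% in +/+ and 0.964 to 1.20% in Δ/D329A, without overlap, and the medians of the libraries ran from 0.81 log2 RPKM in +/+ replicate 5 to 1.49 in +/+ replicate 1. Over all genes 19 passed, 15 higher and 4 lower in Δ/D329A, and the split was 22 to 12 with median centring and 16 to 16 with quantile normalization. All 9 libraries had Xist at 13.9 to 24.1 RPKM and at most 1 read on 4 Y-linked genes, as female animals do.

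H3K4me3, the mark of active and poised promoters, was measured as read numbers scaled by the mapped reads of the library (RPM) in tiles of 2000 bp every 1000 bp. Over the promoters, set as 1500 bp before to 500 bp after the gene start, the 10 clock genes had 8.50 to 33.7 RPM per tile in single libraries, from the percentile 58.6 of all promoters for Tef to 91.8 for Dbp. The ChIP libraries had 12676361 to 15944966 uniquely mapped reads for H3K4me3, 14874942 to 26178088 for H3K27me3, 19056381 to 22850001 for H3K36me3 and 14708935 to 30207875 for input. In the highest tile within 5 kb of the start every clock gene had a peak, with means over the 6 libraries of 30.2 RPM (Per3) to 49.2 RPM (Cry2), which was 34.9 to 62.3 times the input in the same tile. Those tiles lay between the percentiles 75.4 and 99.1 of the highest tiles of all genes.

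**Figure D4:**
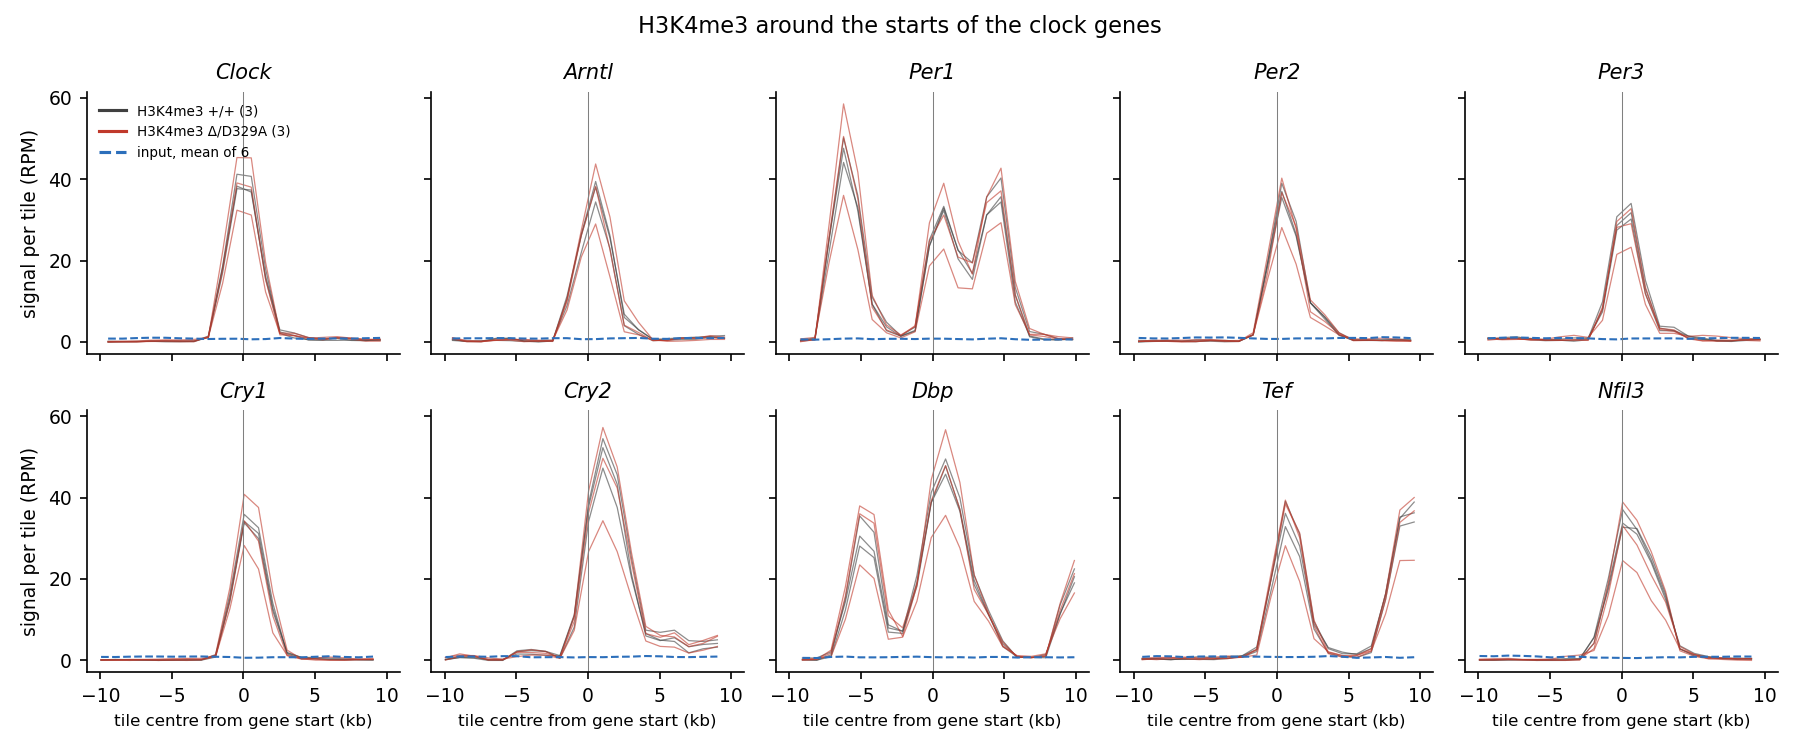
H3K4me3 signal per tile (RPM, y axis) against the distance of the tile centre from the gene start in the expression table (kb, x axis, positive into the gene) for each of 3 +/+ (dark) and 3 Δ/D329A libraries (red), with the mean of 6 input libraries (dashed). Each gene has a peak at its start in both genotypes, Per1 and Tef have a further peak inside the gene, and Per1 and Dbp lie beside a neighbouring peak upstream.

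The shape of the peaks differed among the clock genes. Per1 is annotated from chr11:69095217, but RefSeq places starts 3732 and 4935 bp further in, and at these the nearest tile held 32.7 ± 2.6 and 36.8 ± 3.1 RPM in +/+ (SD, n = 3) and 32.2 ± 4.8 and 36.4 ± 6.7 in Δ/D329A. The Per1 sequence printed above ends at the nearer of these starts. Tef has 2 RefSeq starts 252 and 8993 bp from the table's start, with 36 ± 3.1 RPM in +/+ and 35.3 ± 6.2 in Δ/D329A at the first and 34.4 ± 1.2 and 31.8 ± 6.5 at the second, the start of the E-box stretch shown. The promoter windows of Per1 and Tef do not cover these inner peaks, and their mean signal in the window was the lowest of the 10 genes.

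No promoter of a clock gene passed the test for H3K4me3 (limma on log2 RPM plus 0.1, adjusted p under 0.05 over 25952 promoters, two-sided), beside 0% of all promoters. None separated the genotypes without overlap, beside 6.06% of all promoters. Dbp had 29.0, 28.5 and 31.1 RPM in +/+ and 22.4, 31.5 and 29.0 in Δ/D329A, and Per3 had 18.3, 17.4 and 20.3 against 13.4, 18.8 and 18.4. Arntl had 18.7, 15.5 and 18.5 RPM in +/+ and 14.4, 19.0 and 18.04 in Δ/D329A, and Clock had 28.2, 27.3 and 29.9 against 23.4, 33.7 and 28.4. In all 10 clock genes Δ/D329A replicate 1 was the lowest of the 6 libraries, and in 9 of 10 Δ/D329A replicate 2 was the highest.

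Differences between the genotypes were small beside the spread of the Δ/D329A libraries. Nfil3, with 25.1, 26.0 and 28.6 RPM in +/+ and 17.8, 29.0 and 24.7 in Δ/D329A, had the largest difference, −0.19 log2 (SE 0.20, interval −0.68 to 0.31). Per1, with 13.3, 13.1 and 14.4 against 10.6, 16.5 and 14.4 RPM, had a difference of 0.00 log2 (SE 0.17, interval −0.43 to 0.44), and the limma adjusted p of all 10 genes was 1. Per2 ran from 21.7 to 30.7 RPM, Cry1 from 20.5 to 29.3, Cry2 from 17.1 to 26.3 and Tef from 8.50 to 12.1, each with its extremes in Δ/D329A.

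The low values of Δ/D329A replicate 1 were shared with other promoters: the median over all promoters was 4.05 RPM in that library against 4.87 to 5.88 in the other 5, and its median tile over the genome held 5 reads against 1 to 3. The differences of the clock genes ran from −0.19 to 0.00 log2 with a median of −0.08 and 9 of 10 lower in Δ/D329A, turned to 0.02 to 0.21 with 10 of 10 higher when libraries were centred on their medians, and had 9 of 10 higher, with a median of 0.08, without Δ/D329A replicate 1. Over all promoters the median was −0.07 log2, and centring moves every difference by 0.21. Signs of the H3K4me3 differences thus depended on the scaling, and none passed under any setting run.

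H3K36me3, laid down over transcribed gene bodies and bound by the PWWP domain, was averaged from 500 bp after the start to the gene end. Per3 had the highest values of the clock genes, 2.53, 2.69 and 2.79 RPM in +/+ and 2.51, 2.55 and 2.50 in Δ/D329A, at the percentile 98.1 of 23654 gene bodies. Per2 followed with 2.15 to 2.43 RPM over the 6 libraries, at the percentile 94.7, and Nfil3 was lowest with 0.47 to 0.65 RPM, at 33.9. The order of the genes by H3K36me3 was therefore not that by expression, in which Tef and Clock led.

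No gene body of a clock gene passed for H3K36me3 (limma, adjusted p under 0.05), beside 0% of all gene bodies. In 4 of 10 clock genes, Clock, Cry1, Cry2 and Tef, all Δ/D329A libraries were below all +/+ libraries, beside 22% of gene bodies without overlap in either direction. Clock had 1.51, 1.49 and 1.49 RPM in +/+ and 1.25, 1.37 and 1.14 in Δ/D329A, a difference of −0.24 log2 (SE 0.07, limma adjusted p = 0.230). Cry2 had 2.10, 2.15 and 2.16 against 1.90, 1.95 and 1.92 RPM, a difference of −0.15 log2 (SE 0.03, limma adjusted p = 0.223). In both genotypes the 3 Cry2 values lay close together, and an unadjusted p under 0.05 was found for Clock, Cry2 and Tef, beside 16.1% of all gene bodies.

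Tef had 1.84, 1.87 and 1.87 RPM in +/+ and 1.74, 1.65 and 1.73 in Δ/D329A, a difference of −0.12 log2 (limma adjusted p = 0.239), and Cry1 had 1.24, 1.36 and 1.25 against 1.09, 1.22 and 1.14 RPM, a difference of −0.14 (limma adjusted p = 0.326). With quantile normalization the differences were −0.18 log2 for Clock, −0.04 for Cry2 and −0.02 for Tef. An exact permutation of 3 against 3 libraries cannot give a p under 0.1. The other 6 genes overlapped: Arntl lay between 1.17 and 1.22 RPM in all 6 libraries, Per1 between 1.45 and 1.91 and Dbp between 0.94 and 1.47. Over the 10 genes the median difference was −0.05 log2 with 8 lower in Δ/D329A, and over all gene bodies it was −0.02 with 44.0% higher, and 6 of the 10 genes were higher with quantile normalization.

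H3K27me3, the Polycomb mark of repressed genes, was near or under the background at the clock gene promoters. Single libraries had 0.00 to 0.71 RPM per tile, against 0.37 to 1.15 RPM in input and a median of 0.49 RPM of H3K27me3 over all promoters. None passed (limma, adjusted p under 0.05), beside 0% of all promoters, and 1 of 10, Dbp, separated the genotypes, beside 13.6% of promoters without overlap. Dbp had 0.31, 0.24 and 0.17 RPM in +/+ and 0.00, 0.11 and 0.10 in Δ/D329A, which is about 4.9, 4.0 and 3.4 reads per tile against 0.0, 2.9 and 2.0. Its difference of −1.05 log2 (SE 0.37, limma adjusted p = 0.514) was −0.21 with a pseudocount of 1 RPM, so its size rests on a few reads. Nfil3 had the most signal, with 0.41, 0.27 and 0.37 RPM in +/+ and 0.71, 0.38 and 0.28 in Δ/D329A. Over the 10 clock genes 9 had a lower mean in Δ/D329A with a median of −0.24 log2, against −0.02 over all promoters, while input at the same promoters had 6 higher and a median of 0.07 log2. Without Δ/D329A replicate 1 the median was −0.04 with 6 of 10 lower.

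**Figure D5:**
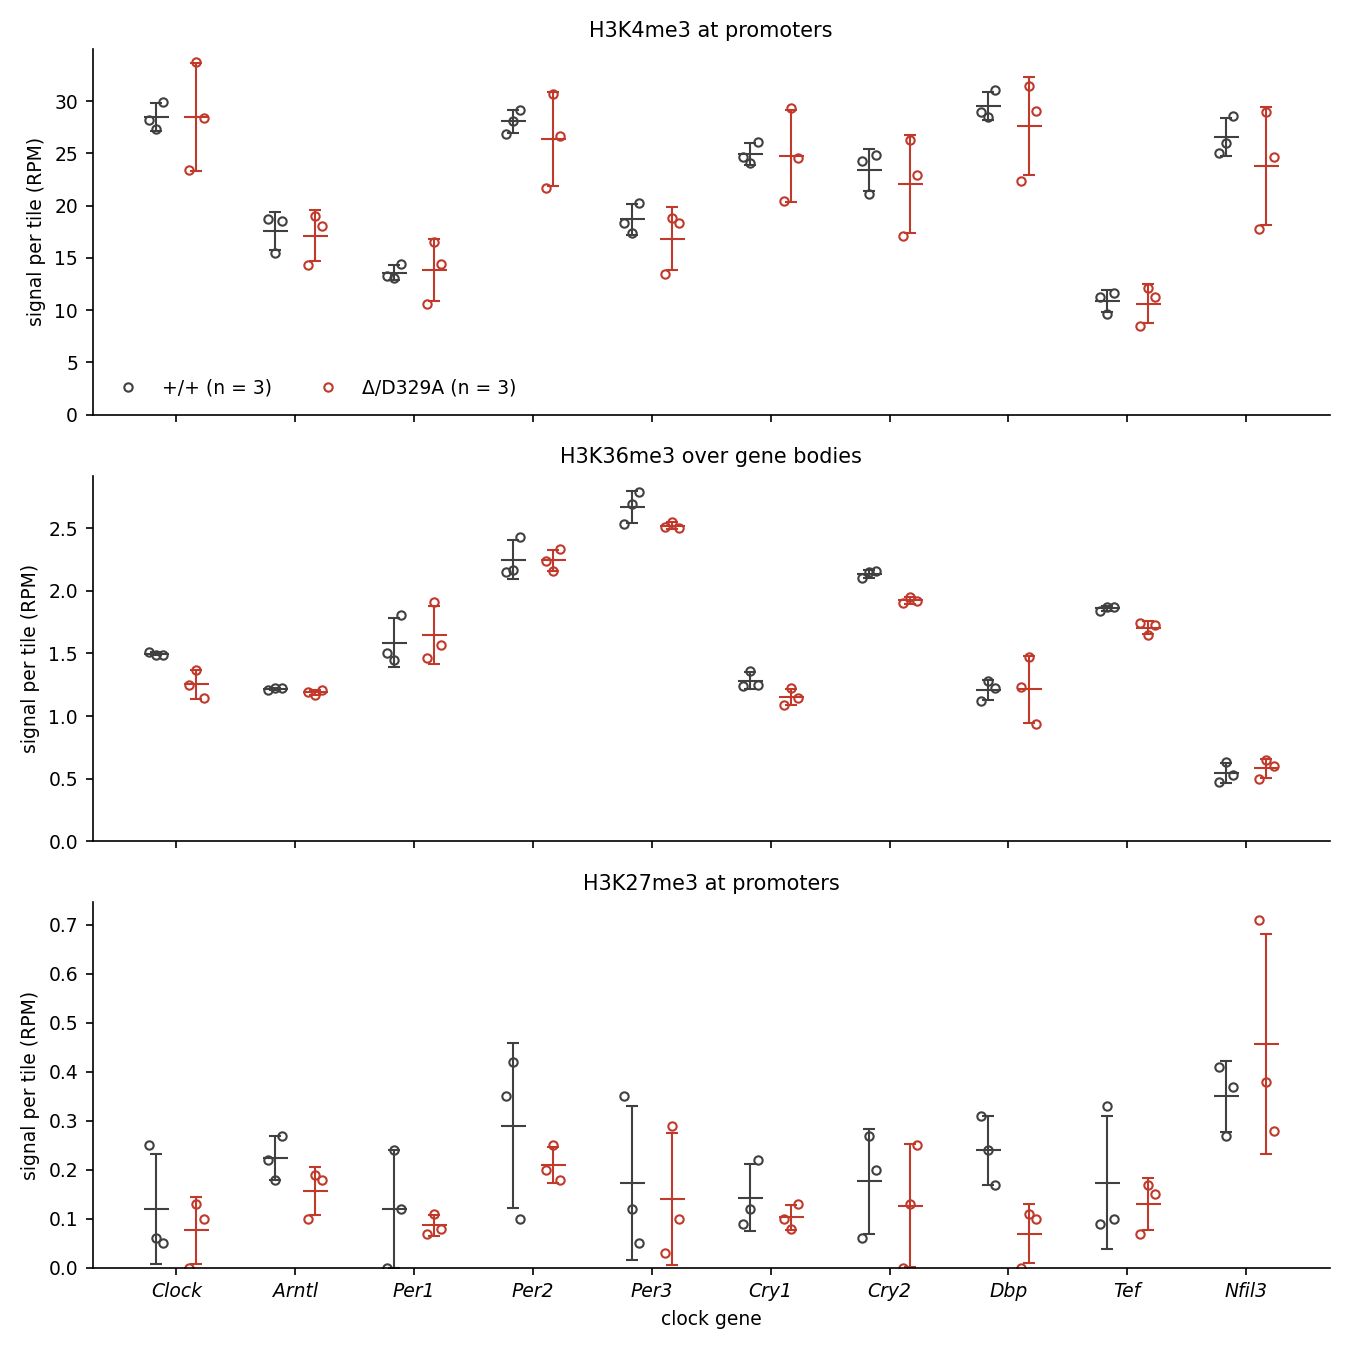
H3K4me3 at promoters, H3K36me3 over gene bodies and H3K27me3 at promoters of the 10 clock genes (mean RPM per tile, y axes from 0) in each of 3 +/+ and 3 Δ/D329A libraries (points), with the mean and SD of each genotype (bars). H3K4me3 is spread more widely in Δ/D329A than in +/+, the genotypes do not overlap for H3K36me3 at Clock, Cry1, Cry2 and Tef, and H3K27me3 stays at or under 0.71 RPM.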

How the data were processed

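The submitters' processing notes name Trim Galore 0.4.3, HISAT2 2.0.5, Bowtie2 2.3.2 and the build GRCm38, whereas the study's methods name other versions of Trim Galore and HISAT2 and, for ChIP-seq, Bowtie in place of Bowtie2, and which of these made the files is not known. The authors deposited log2 RPKM per gene and a ChIP signal in RPM per 2000-bp tile, stepped by 1000 bp. Whole counts of reads, which the deposited values still hold, were recovered for 25963 of 25965 genes (tolerance 0.02 reads). Here genes at 0.1 RPKM or more in at least 4 libraries, without the 13 mitochondrial genes, were fitted by genotype with limma 3.58.1 (trend, R 4.3.3) and adjusted over all genes. Tiles centred in a promoter or gene body were averaged, and log2 of the mean plus 0.1 RPM was fitted mark by mark. Intervals are at 95%. edgeR 4.0.16 and DESeq2 1.42.0 were run on recovered counts as alternatives, beside other scalings, limits, windows and the omission of each library. The code was tested on simulated data. Replicates are single animals. The clock genes, other lists (other clock, suprachiasmatic, immediate early, glucocorticoid-induced and cell type genes), motifs and gene pairs were chosen with earlier results of these data known. Of the other clock genes, 1 is not reported here. By rule, the genes named were the 10 clock genes, Npas2, Nr1d1, Nr1d2, Bhlhe41, Ciart, Hlf and Rorb, and the largest difference of the suprachiasmatic, immediate early and glucocorticoid-induced lists. Rora, Bhlhe40, Avp and Slc17a6 were added after their values were seen, and Fos and Fkbp5 are named as partners in the pairs. Sequences are from RefSeq, GRCm38.p6.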

Additional observations from a re-analysis of the deposited data

Results flagged for a closer look

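In 3 of 20 groups of expression values (10 clock genes in 2 genotypes) 1 library stood apart from the rest of its group by Dixon's test, and chance alone marks about 1 in 20 groups. Per3 in Δ/D329A replicate 3 was 1.62 log2 RPKM, with the nearest of the other 3 libraries at 1.39 and a gap of 0.961 of the group's range. Cry1 in Δ/D329A replicate 2 was 1.46 log2 RPKM, with the nearest library at 2.02 and a gap of 0.954 of the range. Cry2 in +/+ replicate 1 was 3.03 log2 RPKM, with the nearest library at 2.49 and a gap of 0.733 of the range.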

How the results depend on the processing

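None of the 10 clock genes was called for expression, a histone mark or input in any setting that tested them, and for H3K27me3 the limit of 0.5 RPM and edgeR on the nearest tile left 0 clock genes to test. The count of genes called for expression, 19, was 35 at an adjusted p under 0.05, 34 with median centring, 32 with quantile normalization, 11 with a limit of 0.5 RPKM, 76 with edgeR and 251 with DESeq2 on recovered reads, and 1 to 19 when 1 library was left out (1 without Δ/D329A replicate 4, 2 without replicate 1, 5 without replicate 2 and 4 without replicate 3). Among other clock genes DESeq2 gave 1 instead of 0. H3K4me3 regions called, 0, became 28 with median centring, 31 with quantile normalization, 277 with a limit of 0.5 RPM and 46 with edgeR on the nearest tile, and H3K27me3 regions, 0, became 54, 146, 222 and 213 in the same order and 4 with the window of 2500 bp. H3K36me3 gave 0 to 4 and input 0 to 16 with 1 library left out, and input gave 5 with median centring, 1 with quantile normalization, 1 with the window of 2500 bp and 6 in the highest H3K4me3 tile. Of 8 relations between genes, 0 to 1 passed with 1 library left out. For these changes the cause was not tested. For single clock genes, all 170 alternative differences in expression, 152 of 160 for H3K4me3, 135 of 140 for H3K27me3 and 117 of 130 for H3K36me3 lay within the limits set by the replicate spread or the test. Same-numbered expression libraries of the 2 genotypes did not deviate together (r = 0.14, −0.05, −0.05 and −0.05). Same-numbered ChIP libraries gave r = 0.07, −0.26 and 0.23 for H3K4me3. They gave small positive r for H3K27me3 (0.05, 0.08 and 0.01) and for H3K36me3 (0.02, 0.04 and 0.04). For H3K36me3 the differently numbered libraries all gave negative r (−0.030 to −0.005). Deviations within a genotype sum to 0, so positive r of same-numbered libraries pull the other r negative on balance. The negative values are therefore not separate evidence on pairing. No mark had every r over 0.1, so the numbers were not taken as pairs. A replicate block gave 16 genes called for expression. Depth limited the H3K27me3 values, with 0.0 to 4.9 reads per tile at Dbp, and 3 animals per genotype limited every mark.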
